A study of Mus musculus with 2 samples.

Results

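The fibroblast growth factor (FGF) family and its receptors were compared between epididymal white adipose tissue of a chow-fed mouse and of a mouse on a high-fat diet. The members were the probe sets whose only annotated gene symbol was an Fgf number, began with Fgfr1 to Fgfr4, Fgfrl or Fgfbp, or was Klb, Kl, Frs2 or Frs3. This gave 33 genes in 66 probe sets, of 18193 named genes and 45037 probe sets in all. They were 4 intracellular FGF genes (Fgf11 to Fgf14), 18 secreted FGF genes, 5 receptors, 2 klotho co-receptors, 2 FGF-binding proteins, the adaptor Frs3, and Fgfr1op2, which shares only a name with the receptors because its human counterpart was found fused to FGFR1. Frs2 was not analysed here. Both animals were male C57BL/6 mice, the standard inbred laboratory strain, with no transgene or drug named in the labels. The diets began at 9 weeks of age, and the high-fat diet was given for 7 weeks. Each diet had 1 Affymetrix array made from total RNA of the epididymal fat pad, a visceral depot beside the testis.

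FGFs are signalling proteins that mostly act on nearby cells through receptor tyrosine kinases, with heparan sulfate chains of the cell surface and matrix as a required partner. A few secreted members bind heparan sulfate weakly, circulate as hormones and need a klotho protein beside the receptor. The intracellular members, also called FGF homologous factors, are not secreted by the usual route and are best known for binding the cytoplasmic tails of voltage-gated sodium channels. In fat, FGF10 is known as a signal for adipocyte precursors, FGF1 as a factor under control of the nuclear receptor PPARγ, and FGF21 as a metabolic hormone that acts on fat cells through FGFR1 and beta-klotho.

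Values were linear intensities as deposited, 1 per probe set and array. Each array's 40th percentile, 28.6 for chow and 27.9 for the high-fat diet, was taken as the lower limit of usable signal, called the floor here. A probe set counted as measured if 1 or both arrays reached their floor, and, with only 1 array, if its value also exceeded the floor of the other. Values under the floor were raised to it before log2 was taken, so a difference with 1 side under the floor is a bound, written as at least N-fold. Each difference is the log2 value of the high-fat diet less that of chow, and a gene was counted as different at 2-fold or more. With 1 array per diet there was no estimate of the spread between animals and no test of the diet was possible, so a gene called higher or lower here is so in this pair of samples. To gauge part of the error, single probe sets scattered around the mean difference of their gene with a pooled SD of 0.32 log2 units over 5196 genes, and of 0.37 for genes with a mean intensity under 100. In tissue RNA, fewer cells of a type and less RNA per cell cannot be told apart.

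Fat cell markers, which check the tissue label, were bright on both arrays, with Adipoq, the gene of adiponectin, at 8372.1 with chow and 8718.4 with high-fat feeding, and Fabp4 at 10726.6 and 11559.7. All 8 adipocyte markers with a probe set were measured and lay within 2-fold, with a summed intensity of 43342.2 and 46407.7. Mesothelial markers were lower in 8 of 10 cases, with summed intensities of 1824.1 and 1316.9, while macrophage markers summed to 6415.2 and 6612.7. Of the 8 macrophage markers 5 were higher and 3 lower. Itgax was 1.66-fold higher, while Mrc1 was 1.35-fold and Cd163 1.45-fold lower. Of 7 epididymis markers 4 were measured, with no value above 75.7, and Lcn5, Lcn9 and Cst11 were below the floor. Of 8 testis germ cell markers 4 were measured, 3 higher and 1 lower, with summed intensities of 211.7 and 309. Sycp3 was at 60.8 and 132.5, 2.18-fold higher, and Prm2 at 24.4 and 54, at least 1.89-fold higher. Tcp11 was at 96.5 and 102.3, 1.06-fold higher, and Acrv1 at 30 and 20.2, at least 1.08-fold lower. Prm1, Tnp1, Tnp2 and Ddx4 were below the floor. Of 7 measured smooth muscle and pericyte markers 5 were lower, among them Myh11 by 2.10-fold and Tagln by 1.94-fold, and 2 were higher. The higher ones were Acta2, at 1476.2 with chow and 1866.2 with high-fat feeding, and Des, at 62.4 and 93.4. The other measured probe set of Des had a difference of 2.35 log2 units. Summed intensities of the 7 markers were 4177.2 and 4196.9. The part of other cell types in the results was not tested.

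Of the 33 family genes 22 were measured, 15 with both arrays above the floor and 7 with 1 array. Fgf13 and Fgf21 were 2-fold or more higher on the high-fat diet, against 1.17% of all 13992 measured genes, and Fgf22 and Frs3 were 2-fold or more lower, against 1.36% of all genes. Over all genes these shares came from 164 higher and 190 lower genes, a split of 115 and 269 when centred on reference genes. Of the 15 genes above the floor on both arrays 14 lay within 2-fold and 12 within 0.5 log2 units. Fgf14, Fgf17, Fgf23 and Fgfbp3 had bounds under 2-fold, which leave the size of their differences unknown. Only Fgf13 was above the floor on both arrays among the 4 genes past 2-fold. Among genes above the floor on 1 array, bounds of 2-fold or more were found in 3.17% for higher and 4.82% for lower. The median difference of the measured family genes was 0.18, and that of all measured genes was -0.02. The genes not measured were Fgf2, Fgf5, Fgf6, Fgf8, Fgf12, Fgf15, Fgf16, Fgf18, Fgf20, Kl and Fgfbp1, which had no value above 26.3 on chow or 24.3 on the high-fat diet.

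**Figure D1:**
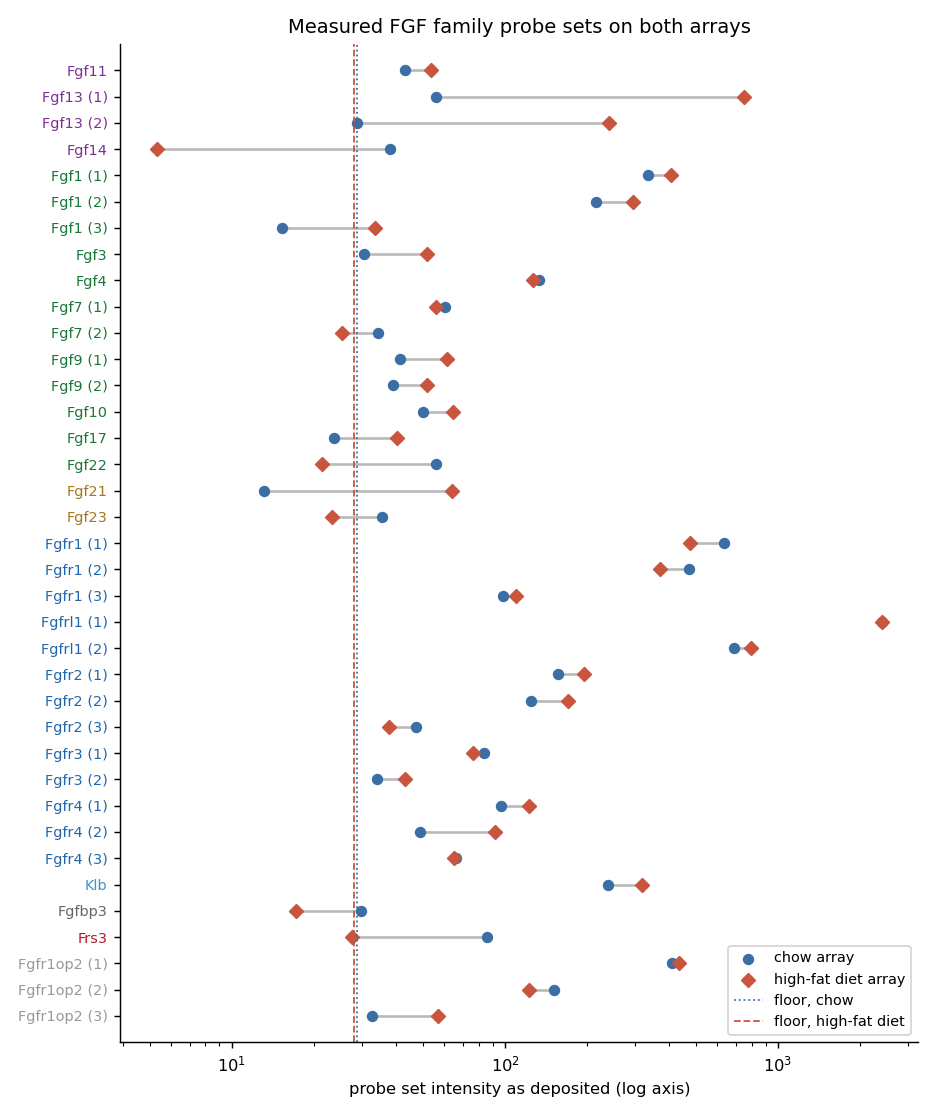
Deposited intensity of each measured family probe set on the chow array (circles) and the high-fat diet array (diamonds), on a log axis, with each array's floor as a vertical line. Label colours mark the roles, and a number in brackets tells apart the probe sets of 1 gene. The longest line above the floor belongs to Fgf13, from 55.8 to 749.5, while most receptor probe sets have both points close together.

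Fgf13 had the largest difference among the intracellular FGFs and ranked first of all 13992 measured genes, with genes above the floor on 1 array ranked at their bounds. It encodes an intracellular factor, also named Fhf2, that is known from neurons, where it binds sodium channels and microtubules. In its first probe set the intensity was 55.8 with chow and 749.5 with high-fat feeding, a difference of 3.75 or 13.4-fold. In its second probe set the intensity was 28.6 on chow, exactly at the floor, and 240.8 on the high-fat diet, a difference of 3.07 or 8.42-fold. Both probe sets were therefore high on the same array. The annotation gives the same source sequence for both, and both read the same RNA samples, so their agreement is not independent. The first difference was 11.8 times the pooled probe set SD, which contains no variation between animals. Of the 5196 genes that had at least 2 probe sets with both arrays above the floor, Fgf13 was the only one whose probe sets were all 8-fold or more higher, a threshold chosen after its values were seen.

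The other intracellular genes were near or below the floor. Fgf11 was at 43.2 with chow and 53.5 with high-fat feeding in its measured probe set, 1.24-fold higher and within the probe set error. Its other probe set read 4.9 and 28, which gave no bound because the higher value did not exceed the chow floor. Fgf14 was at 37.8 with chow and 5.3 with high-fat feeding in 1 of its 4 probe sets, at least 1.35-fold lower, and its other 3 probe sets had no value above 3.3. The 3 probe sets of Fgf12 were below the floor on both arrays, between 5.1 and 25.9 on chow and between 1.6 and 22.3 on the high-fat diet. The bound of Fgf14 depends on the floor: its difference was -1.96 with the floor at the 20th percentile and -1.34 with no floor and 16 added to each intensity, both past 2-fold. Fgf13 was thus higher and Fgf14 lower on the high-fat diet, the latter by an amount these values do not fix.

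RefSeq lists 4 start sites for Fgf13 on mouse chromosome X, and the array values do not say which of them was in use. The windows of 250 bases before a pair of these starts are shown, 1 poor and 1 rich in CG dinucleotides, since they show how different the alternative promoters of the gene with the largest difference are. Sequences and coordinates are from RefSeq, build GRCm38.p6, read 5′ to 3′ on the gene's strand. Capitals mark matches, on either strand, to the 3 motifs searched. The TATA box was searched for as TATAAA, the E-box was searched for as CACGTG and the GC box was searched for as GGGCGG, and only the GC box was found in these windows.
Fgf13 upstream window 1, chrX:59585573-59585822, minus strand: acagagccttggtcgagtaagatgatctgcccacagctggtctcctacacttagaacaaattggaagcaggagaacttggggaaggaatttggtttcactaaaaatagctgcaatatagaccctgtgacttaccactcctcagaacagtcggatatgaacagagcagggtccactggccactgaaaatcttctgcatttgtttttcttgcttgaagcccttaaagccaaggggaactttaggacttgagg
Fgf13 upstream window 2, chrX:59567349-59567598, minus strand: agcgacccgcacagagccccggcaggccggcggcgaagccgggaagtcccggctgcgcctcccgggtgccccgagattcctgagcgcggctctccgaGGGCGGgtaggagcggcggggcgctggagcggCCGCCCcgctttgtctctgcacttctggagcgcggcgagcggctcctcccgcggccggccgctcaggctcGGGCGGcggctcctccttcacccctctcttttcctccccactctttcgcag
Window 1 held 2 CG dinucleotides and no motif match, and window 2 held 33 CG dinucleotides, more than 96.0% of all 32851 upstream windows in the table, and 3 GC boxes. The windows of starts 3 and 4 held 6 and 31 CG dinucleotides, and 0 and 4 GC boxes. The median over all windows was 6 CG dinucleotides, and a GC box was found in 32.7% of them. A match is a description of the letters and not of a bound site.

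Fgf13 is best known from nerve cells, and fat is innervated, so nerve and Schwann cell markers are given beside it. Of 13 markers with a probe set 8 were measured, 5 higher and 3 lower, with a median difference of 0.33 and no value or bound of 2-fold or more. Their summed intensity was 541.5 with chow and 637.7 with high-fat feeding. The neuronal markers Tubb3, Nefm, Nefh and Snap25 were below the floor on both arrays. Th, the enzyme of sympathetic nerve transmitter synthesis, was at 56.7 and 68.8. The Schwann cell factor Sox10 was at 88.6 and 78.5, and it was lower in all 3 probe sets, the others at -0.78 and -0.75. Also lower were Stmn2, at 82 and 78.9, and Mbp, at 197.5 and 186.3, although 1 of the 5 Mbp probe sets was higher. The neurofilament gene Nefl was at 29.9 and 50.1, and Elavl4 and S100b passed the floor with high-fat feeding only, at 46.9 and 52.6, so that their differences, at least 1.64-fold and 1.84-fold higher, are bounds.

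The listed sodium channel and partner genes were near or below the floor, apart from Scn7a. The list was wider than the channels that intracellular FGFs bind, since it also held beta subunits and the partner gene Mapk8ip2. Its median is therefore not that of bound channels. Of 12 listed channel and partner genes with a probe set 6 were measured, with 2 higher, 4 lower and no value or bound past 2-fold. Their median difference was -0.36, against -0.02 for all measured genes, but -0.11 with the floor at the 60th percentile, -0.19 with no floor and -0.15 when the least different probe set stood for each gene. Scn7a, a sodium-sensing channel, was at 814.5 and 542.2 in 1 of 3 probe sets that did not share a direction. Scn4b, a channel beta subunit, was at 48.9 with chow and 26.8 with high-fat feeding, at least 1.75-fold lower. Scn3b, another beta subunit, was at 63.4 and 46.2, and the pore-forming Scn8a was at 40.5 and 33.8. The neuronal pore-forming genes Scn1a, Scn2a, Scn3a, Scn9a, Scn10a and Scn11a were below the floor on both arrays.

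**Figure D2:**
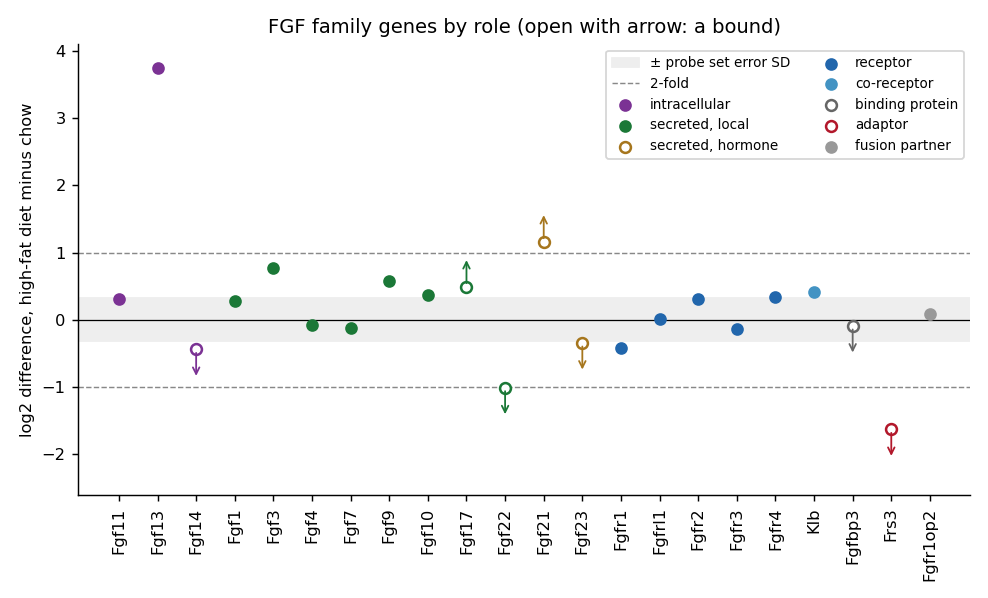
Log2 difference, high-fat diet minus chow, of the 22 measured family genes, coloured by role. Open circles with an arrow are bounds from genes above the floor on 1 array, the grey band is 1 pooled SD of single probe sets on each side of 0, and dashed lines mark 2-fold. Fgf13 stands at 3.75, and the 5 receptors lie between -0.41 and 0.34.

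Among the secreted FGFs 10 of 18 were measured, 6 of them higher and 4 lower, with a median difference of 0.32. This median is close to the 0.31 of the 3 measured intracellular genes. The ends of the secreted group, Fgf22 at -1.01 and Fgf21 at 1.16, are bounds. Neither median was stable to the choice of floor. With the floor at the 20th percentile the secreted median was -0.03 and the intracellular median -0.16.

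The hormone-like FGFs were near the floor. Fgf21, the metabolic hormone made mainly by liver and also by fat, was at 13.1 with chow and 63.9 with high-fat feeding in its only probe set. It was at least 2.23-fold higher, with a bound of 1.16 log2 units, and 0.09 with the floor at the 60th percentile. Fgf23, the phosphate-regulating hormone of bone, was at 35.4 with chow and 23.3 with high-fat feeding, at least 1.27-fold lower. Fgf15, the gut hormone of bile acid control, was below the floor at 23.3 and 23.7. The high-fat diet array was thus the higher one for Fgf21 and the lower one for Fgf23, with 1 probe set each.

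Fgf21 has 1 start in RefSeq, on chromosome 7, and its upstream window is shown because it is the only secreted member past 2-fold on the higher side and because it holds all 3 motifs searched.
Fgf21 upstream window 1, chr7:45615491-45615740, minus strand: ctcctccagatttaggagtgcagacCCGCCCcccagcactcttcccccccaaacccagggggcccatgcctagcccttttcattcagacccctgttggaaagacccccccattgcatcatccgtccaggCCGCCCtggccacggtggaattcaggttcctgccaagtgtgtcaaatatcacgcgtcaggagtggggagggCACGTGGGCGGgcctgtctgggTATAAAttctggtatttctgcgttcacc
It held a TATA box that begins 28 bases before the start, an E-box that begins 50 bases before the start and 3 GC boxes, 1 of which shares a base with the E-box. A TATA box was found in 12.4% and an E-box in 6.02% of all 32851 windows.

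Among the locally acting secreted FGFs, Fgf1, Fgf9, Fgf10 and Fgf3 were higher on the high-fat diet by less than 2-fold. Fgf1 had 3 measured probe sets, at 334.4 and 404.3, at 216.3 and 294, and at 15.2 and 33.5 on chow and the high-fat diet. All 3 were higher, by 1.21-fold, 1.36-fold and at least 1.17-fold. Fgf9, a growth factor of several developing organs, was at 41.2 and 61.5 in its first probe set and at 39 and 51.9 in its second, 1.49-fold and 1.33-fold higher. Fgf10, the precursor signal, was at 49.9 with chow and 64.4 with high-fat feeding, 1.29-fold higher. The differences of Fgf1 and Fgf10 are of the size of the probe set error, and that of Fgf9, 0.58, is above it, but was 0.03 with the floor at the 60th percentile. Both Fgf9 probe sets and all those of Fgf1 were higher on the same array. The third Fgf1 probe set passed the floor on that array only, so it could not come out lower. The other Fgf1 probe sets share a source sequence. Probe sets of 1 direction were found in 46.5% of all genes with at least 2 measured probe sets.

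Fgf7, the keratinocyte growth factor made by mesenchymal cells, was the only gene of this kind with several measured probe sets that was lower. It was at 60.5 with chow and 55.7 with high-fat feeding, 1.09-fold lower, and its second probe set was at 34.4 and 25.3, at least 1.23-fold lower. The second Fgf7 probe set passed the floor on the chow array only, so it could not come out higher. Fgf22, known as an organiser of synapses, was at 56.1 with chow and 21.4 with high-fat feeding, at least 2.01-fold lower. Its other probe set was below the floor at 11.2 and 14.1, and the bound was under 2-fold when the arrays were quantile normalized, at -0.97. Fgf17 was at 23.7 and 40.2, at least 1.41-fold higher, with its other probe set below the floor at 9 and 1.8.

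For Fgf3 and Fgf4, which are best known from embryos, the probe sets of the gene disagreed on whether there was signal at all. Fgf3 was at 30.4 with chow and 51.7 with high-fat feeding, 1.70-fold higher, in a probe set of the kind whose probes may also bind other transcripts. Its other 2 probe sets were below the floor on both arrays. Fgf4 was at 133.6 and 126.6, 1.06-fold lower, in 1 probe set, and no value of its other 3 exceeded 9.9. Values of these genes rest on 1 probe set each.

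**Figure D3:**
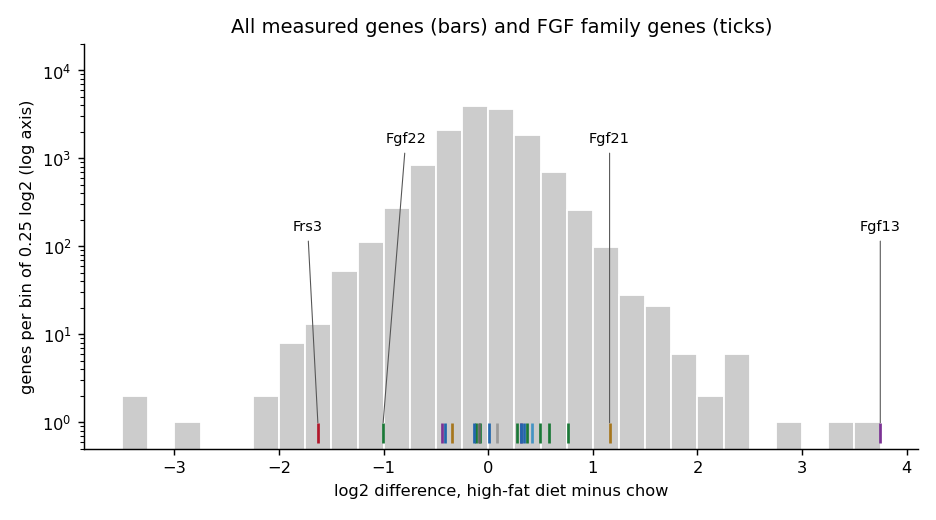
Number of measured genes in each bin of 0.25 log2 units of difference, high-fat diet minus chow, on a log axis (bars), with the 22 measured family genes as ticks coloured by role and the 4 past 2-fold named. Fgf13 lies at the right end at 3.75, Fgf21 at 1.16, Fgf22 at -1.01 and Frs3 at -1.63, the last 3 as bounds.

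All 5 receptor genes were measured on both arrays and all lay within 0.5 log2 units, 3 higher and 2 lower in the probe set that represents the gene. Fgfr1, the main FGF receptor of fat cells, was at 631.5 with chow and 474.1 with high-fat feeding in its first probe set, 1.33-fold lower. Its second was at 471.2 and 370.3, 1.27-fold lower, and the other at 98.5 and 109.5, 1.11-fold higher. Fgfr2 was at 156.5 and 194.7 and at 124.9 and 170.2, 1.24-fold and 1.36-fold higher, while the other probe set, at 47.4 and 37.7, was 1.26-fold lower. The directions of Fgfr1 and Fgfr2 therefore depend on the probe set.

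Fgfr3 was at 83.9 and 76.3 in 1 probe set, 1.10-fold lower, and at 34 and 43.2 in the other, 1.27-fold higher. Fgfr4 was at 96.4 and 122, 1.27-fold higher, at 48.7 and 91.9, 1.89-fold higher, and at 66.1 and 64.9, 1.02-fold lower, with 2 more probe sets below the floor. The probe sets of Fgfr4 that were higher are of the kind that may bind other transcripts. Fgfrl1, a receptor-like protein without the kinase domain, was at 2392.8 and 2406.1, 1.01-fold higher, and at 690.4 and 797.1, 1.15-fold higher. Fgfrl1 was the only receptor gene whose measured probe sets shared a direction, although its first probe set was lower with quantile normalization, lowess centring or centring on reference genes. Over all genes with at least 2 measured probe sets, 46.5% of 6037 had probe sets of 1 direction, and in the family these were 5 of 10.

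Klb, the gene of beta-klotho, which FGF21 needs to reach FGFR1, was at 237.9 with chow and 318 with high-fat feeding, 1.34-fold higher, with its other probe set below the floor at 4.8 and 4.9. Kl, the gene of alpha-klotho, which FGF23 needs, was below the floor in both probe sets, at 12.6 and 24.3 and at 7.5 and 4. Within the FGF21 axis, the hormone and its co-receptor were thus higher on the high-fat diet array, and Fgfr1 was lower in 2 of 3 probe sets. Of these only the bound of Fgf21 passed 2-fold.

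Frs3, an adaptor that docks signalling proteins on activated FGF receptors, had the largest bound on the lower side of the family, although Fgf14 was further below 0 with the floor at the 20th percentile and with no floor. Frs3 was at 86.2 with chow and 27.5 with high-fat feeding, just under the floor, at least 3.09-fold lower in its only probe set. Its bound was -1.63 log2 units. Fgfbp3, a secreted protein that binds FGFs, was at 29.7 and 17.1, at least 1.06-fold lower, and Fgfbp1 was below the floor at 17.8 and 13.6. Fgfr1op2, the member by name only, was at 409.4 and 434.5 and at 32.6 and 56.9, 1.06-fold and 1.75-fold higher, and at 150.8 and 122.3, 1.23-fold lower, and the first of these differences was -0.0023 when centred on reference genes.

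The steps after the receptor differed by less than 2-fold in all but 1 measured gene. Of 15 measured genes of the kinase cascade 7 were higher and 8 lower, with a median difference of -0.002 and 1 past 2-fold, against 2.53% of all genes in either direction. That gene was Pik3r1, the regulatory subunit of phosphoinositide kinase, which also serves the insulin receptor. It was at 1528 with chow and 700.1 with high-fat feeding, 2.18-fold lower, and its other 3 probe sets differed by between -1.29 and -0.83. The next genes by size with probe sets of 1 direction differed far less. Map2k1, the kinase MEK1, was 1.11-fold higher, the docking protein gene Gab1 1.07-fold higher and the adaptor gene Grb2 1.06-fold lower.

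Feedback inhibitors and transcriptional targets, which FGF signalling is known to induce, had no value or bound of 2-fold or more, and among them only the target Etv4, at 19 and 34.3 and at least 1.20-fold higher, was a bound. Of 11 measured genes listed as inhibitors 4 were higher and 7 lower, with a median of -0.11. These counts include the Flrt genes, which are not established inhibitors. Flrt1 was 1.15-fold lower, Flrt2 1.09-fold higher and Flrt3 1.07-fold higher. Dusp4, a kinase phosphatase, was at 93.8 with chow and 58.4 with high-fat feeding, 1.61-fold lower, Spry4, a sprouty inhibitor, was at 101.7 and 144.6, 1.42-fold higher, and Spry2 was 1.19-fold lower. Of 7 measured targets 5 were higher and 2 lower, with a median of 0.05, or -0.034 when centred on reference genes. Myc was at 48.9 and 30.4, 1.61-fold lower, Fosl1 at 44.9 and 61.8, 1.38-fold higher, and Fos 1.22-fold higher. Egr1, an immediate early target, was at 135.6 and 140.8. These genes respond to many signals besides FGFs.

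Heparan sulfate, the partner of secreted FGFs, is built by a set of enzymes on core proteins. Of 13 measured enzymes 9 were higher and 4 lower, with none past 2-fold and a median of 0.05, or -0.04 when centred on reference genes. Ext2, a chain polymerase, was 1.36-fold lower in 2 probe sets of 1 direction, the sulfotransferase Ndst2 1.24-fold lower and Hs3st3b1 1.23-fold higher, with 1.08 log2 units in the other probe set of Hs3st3b1. Of 11 measured core proteins 7 were higher and 4 lower in the probe set that represents the gene, with 1 past 2-fold. The median was 0.12, or -0.02 with the mean of all measured probe sets. The gene past 2-fold was Gpc1, the cell-surface proteoglycan glypican-1, at 57.7 with chow and 163.9 with high-fat feeding. It was 2.84-fold higher in its only measured probe set. Sdc1, counted as higher, was lower in 2 of 3 probe sets, 1 of them at -1.28. Gpc6, also counted as higher, was higher in 3 of 5 probe sets, 1 of them at 1.21. Hspg2, the basement membrane proteoglycan perlecan, was at 577.9 and 860.3, 1.49-fold higher, with 0.91 for the other probe set. Gpc3 was 1.52-fold and Agrn 1.48-fold lower.

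**Figure D4:**
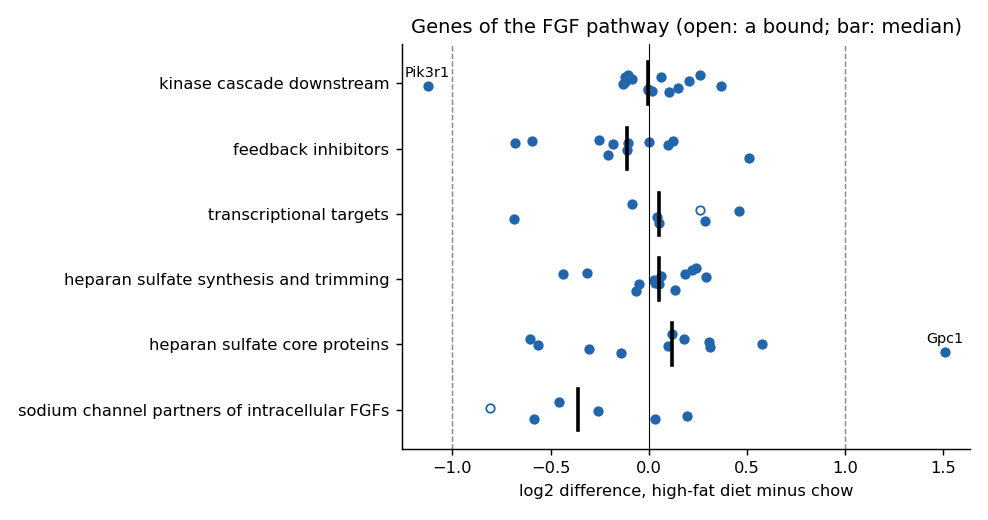
Log2 difference, high-fat diet minus chow, of each measured gene in the 6 pathway lists (points, open where the value is a bound), with the list median as a black bar and 2-fold as dashed lines. Pik3r1 at -1.13 and Gpc1 at 1.51 lie past 2-fold, and the bounds, Etv4 and Scn4b, lie under it.

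**Figure D5:**
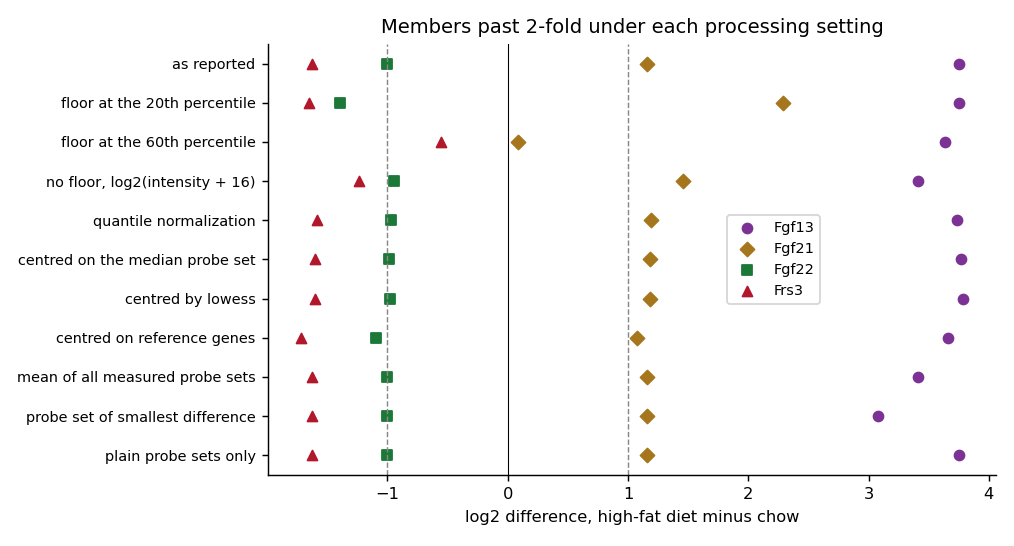
Log2 difference of the 4 family genes past 2-fold, as reported and under 10 other processing settings, with 2-fold as dashed lines. Fgf13 stays between 3.07 and 3.79, whereas Fgf21 and Frs3 fall within 2-fold with the floor at the 60th percentile, where Fgf22 is not measured.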

How the data were processed

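Per the labels' protocols, Trizol-extracted total RNA (10 µg) was made into biotinylated cRNA and hybridised to Affymetrix arrays. The deposited values are linear intensities, 1 for each probe set on each of 2 arrays, without detection calls. How the authors summarised and scaled the intensities is not given in the sources used here. Medians of log2 intensity differed by -0.03, under the limit of 0.1, so values were used unchanged. Probe sets were named from a platform annotation of 2016. Those with 1 symbol (34945) were used, and 0 member symbols changed in RefSeq. A gene is represented by its measured probe set with the highest mean log2 intensity. Pathway genes are named where 2-fold or more different, and otherwise up to 3 of the largest with probe sets of 1 direction. Members and lists were chosen with earlier results of these data known. The condition that a lone value exceed the floor of the other array was added after the values were seen. Log2 differences were computed with pandas 2.3.3 in Python 3.11.15. The steps were tested on simulated data, with changes put only into genes with a bright probe set and with less noise than the probe set error. That test says little of values near the floor. The number of arrays limits the precision. The 10 alternatives covered floor, scale and probe set.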

Additional observations from a re-analysis of the deposited data

How the results depend on the processing

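No paired analysis and no omission of a replicate was possible because each diet had 1 array. Of the 22 measured family genes 16 kept their direction in all of the 10 alternatives that gave them a value, and no gene past 2-fold changed direction. Part of this was fixed in advance. Where a floor is set, a gene above it on 1 array takes that array's direction or is not measured. The 7 family genes reported as bounds, among them Fgf21, Fgf22 and Frs3, all belong to the 16. A gene with 1 measured probe set also cannot change direction with the choice of probe set. Fgfr1, Fgfr2, Fgfr3, Fgfr4, Fgfrl1 and Fgfr1op2 changed direction in at least 1 alternative. The count of family genes 2-fold or more higher, 2 as reported, was 1 with the floor at the 60th percentile. The count lower, 2 as reported, was 0 with that floor and 1 with quantile normalization, with centring on the median probe set and with lowess centring, where Fgf22 was just under 2-fold. It was 3 with the floor at the 20th percentile, where Fgf14 was added, and 2 with no floor, where the genes were Fgf14 and Frs3. The median of secreted FGF genes, 0.32 as reported, was -0.027 with the floor at the 20th percentile, 0.058 at the 60th and 0.011 with no floor and 16 added to each intensity. The median of intracellular genes, 0.31 as reported, was -0.16, 3.64 and -0.061 in the same settings, with 4, 1 and 4 genes, and 2.03 with plain probe sets only, with 2 genes. The median of receptor, co-receptor, binding protein and adaptor genes, -0.04 as reported, was 0.11 with the mean of all measured probe sets. Over all genes, 164 were 2-fold or more higher and 190 lower. These counts were 608 and 727 with the floor at the 20th percentile, 90 and 66 at the 60th, 247 and 268 with no floor, and 115 and 269 when centred on reference genes. Pathway lists were put through the same settings after the data were seen. The medians of transcriptional targets and heparan sulfate enzymes were -0.034 and -0.04 when centred on reference genes, and that of core proteins -0.02 with the mean of all measured probe sets. The median of the kinase cascade, -0.002 as reported, was -0.09 when centred on reference genes and 0.03 with lowess centring.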
